A study of Mus musculus with 2 samples.

Results

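Expression of 33 genes was examined, 22 immediate early genes and 11 heat shock genes, taken by name from a fixed list and matched by symbol among 32285 annotated genes; all 33 were found, and all 33 had at least 20 unique molecular identifiers (UMIs, counted cDNA molecules) over both libraries in every cell class compared. Cells were freed from the 4th mammary gland of virgin female C57BL/6 mice aged 6 to 8 weeks. One library, KO, came from animals with a deletion of Gpm6a, a membrane glycoprotein gene, and the other, WT, from wild-type littermates; 3 animals of each genotype were used, and the labels do not say how the cells of the 3 were combined. The glands of both genotypes were digested with 300 U/ml collagenase III for 2 h at 37 °C, then with trypsin for 5 min and DNase I for 5 min, and live cells were sorted as DAPI-negative. With 1 library per genotype there is no replicate of either, so the libraries were compared without a test, and genotype, library and any day of preparation cannot be told apart. All intervals are 95% and cover counting error only.

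Immediate early genes are switched on within minutes of a stimulus, without new protein synthesis, by transcription factors that already wait in the cell. Heat shock genes encode chaperones that keep proteins folded, and the inducible ones are switched on by heat shock factors that bind repeated GAA units in their promoters. Both groups are known to rise while tissue is digested into single cells. No undigested sample was analysed here, so the level in the tissue and the level added by digestion cannot be told apart.

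The libraries held 11442 (KO) and 12291 (WT) barcodes, of which 10422 and 10523 were analysed, with 128103589 and 148554122 UMIs and median depths of 9500 and 11086 UMIs per cell. They shared 33 barcode sequences. Of the deleted gene, the KO library had 29 UMIs in 19 cells and the WT library 284 UMIs in 58 cells, or 0.226 (0.152 to 0.325) against 1.91 (1.70 to 2.15) UMIs per 1000000 (CPM); the labels do not say which stretch was deleted, so these 3′ counts do not check the deletion. Cells were clustered with the 33 genes and the related lists left out, and clusters were named from marker genes as a cell type followed by "-like". Of 35 clusters, 24 fell into 14 classes, and 10 classes with at least 100 cells in each library were compared. Clusters without a name held 9.36% of KO and 22.3% of WT cells, among them 5 clusters that came almost wholly from WT. Markers of fibroblasts summed to a higher level in WT than in KO in all 10 classes; the values are given beside the results they move with.

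Promoters of 5 genes are shown first, 4 that hold the heat shock letters counted below and Fos, because these genes recur in the measurements. They are RefSeq sequences on GRCm38.p6, from 250 bases before to 30 after the annotated start, 5′ to 3′ on the gene's strand. In the first 4, capitals mark GAANNTTC and TTCNNGAA, the paired units of a heat shock element. Hspa1a and Hspa1b, which encode the stress-inducible Hsp70, lie at chr17:34972127-34972406 and chr17:34959209-34959488, both on the minus strand. Hspe1, the mitochondrial cochaperonin Hsp10, lies at chr1:55087898-55088177 on the plus strand. Hsph1, the Hsp110 exchange factor of Hsp70, lies at chr5:149636286-149636565 on the minus strand.

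Hspa1a: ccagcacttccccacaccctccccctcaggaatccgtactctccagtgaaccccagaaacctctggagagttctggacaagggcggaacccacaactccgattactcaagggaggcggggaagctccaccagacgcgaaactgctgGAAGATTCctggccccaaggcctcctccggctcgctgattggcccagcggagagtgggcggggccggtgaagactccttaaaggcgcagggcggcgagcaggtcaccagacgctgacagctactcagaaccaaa
Hspa1b: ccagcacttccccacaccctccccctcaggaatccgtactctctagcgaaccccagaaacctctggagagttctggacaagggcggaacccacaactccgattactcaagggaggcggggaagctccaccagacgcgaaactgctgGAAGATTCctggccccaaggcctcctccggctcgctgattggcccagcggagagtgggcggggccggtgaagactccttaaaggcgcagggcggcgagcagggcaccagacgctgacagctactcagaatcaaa
Hspe1: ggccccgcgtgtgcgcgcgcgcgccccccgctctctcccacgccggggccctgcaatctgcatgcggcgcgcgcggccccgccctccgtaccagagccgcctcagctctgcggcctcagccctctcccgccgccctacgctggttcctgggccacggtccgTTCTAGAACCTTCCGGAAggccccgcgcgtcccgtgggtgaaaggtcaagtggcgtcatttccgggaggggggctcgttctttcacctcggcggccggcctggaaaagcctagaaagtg
Hsph1: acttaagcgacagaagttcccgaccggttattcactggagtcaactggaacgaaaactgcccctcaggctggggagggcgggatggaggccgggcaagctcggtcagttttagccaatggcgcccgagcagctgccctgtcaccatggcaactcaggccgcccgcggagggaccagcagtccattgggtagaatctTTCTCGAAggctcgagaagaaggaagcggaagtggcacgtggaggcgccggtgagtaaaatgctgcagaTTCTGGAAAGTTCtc

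In Fos, at chr12:85473640-85473919 on the plus strand, capitals mark TGACG, the core of a cAMP response element, read on either strand.

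Fos: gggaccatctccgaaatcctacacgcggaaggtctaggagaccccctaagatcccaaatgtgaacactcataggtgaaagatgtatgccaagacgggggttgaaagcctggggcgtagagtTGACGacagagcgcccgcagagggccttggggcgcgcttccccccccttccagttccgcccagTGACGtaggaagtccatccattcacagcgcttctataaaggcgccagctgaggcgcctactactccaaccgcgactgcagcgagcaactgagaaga

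Promoters in the RefSeq table matched 26 of the 33 genes, 18 immediate early and 8 heat shock. GAANNTTC stood in the window from 250 bases before to 50 after the start in 7 of 8 heat shock genes (Dnaja1, Hspa1a, Hspa1b, Hspb1, Hspd1, Hspe1 and Hsph1), in 2 of 18 immediate early genes (Fosl2 and Jun) and in 9.04% of 27025 genes. An element of 3 units (GAANNTTC continued by NNGAA, or TTCNNGAA continued by NNTTC), which contains both pairs, stood in 3 of 8 heat shock genes (Hspd1, Hspe1 and Hsph1), in none of the 18 immediate early genes and in 0.662% of all genes. TGACG, searched on both strands, stood in 10 of 18 immediate early genes, Fos and Atf3 among them, but also in 5 of 8 heat shock genes, against 23.0% of all genes. Motif matches are letters in a window, and absence of one says nothing beyond that window. The windows of Hspa1a and Hspa1b were identical at 296 of 300 positions, differing at C44T, T47C, T249G and C276T (Hspa1a first, counted from the 5′ end). Hspe1 and Hspd1, the cochaperonin and the chaperonin Hsp60, are read in opposite directions, and 275 bases of the printed Hspe1 stretch belong also to a promoter entry of Hspd1, the capitals included.

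Across the 10 classes compared, immediate early genes were highest in the cells of vessels and lowest in B cell-like and T cell-like cells. Their 22 UMI counts summed to 22829.8 (22559 to 23103) CPM in KO and 16231 (16102 to 16361) in WT in pericyte or smooth muscle-like cells. Vascular endothelial-like cells had 21723 (21558 to 21889) and 18771 (18633 to 18911) CPM. Basal-like, luminal progenitor-like and fibroblast-like cells formed a middle group, with 12356, 12011 and 11791 CPM in KO and 11992, 11312 and 12130.3 in WT. Hormone-sensing luminal-like cells followed at 9781 and 9709.7 CPM, macrophage-like cells at 8663 and 9377, and dendritic cell-like cells at 6206 and 7473. B cell-like and T cell-like cells were lowest, at 5937 (5834 to 6040.4) and 5773 (5706 to 5841) CPM in KO and 5974 (5845 to 6106) and 5988 (5888 to 6089) in WT. Their intervals overlapped within either library, which does not show that they were equal. Of classes too small to be compared, neutrophil-like cells stood lower, at 4589 CPM in KO and 5476 in WT. Natural killer-like cells stood at 6339 and 8274 CPM, mast cell-like cells at 17457 and 14661, and skeletal muscle-like cells at 1718 in WT.

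**Figure D1:**
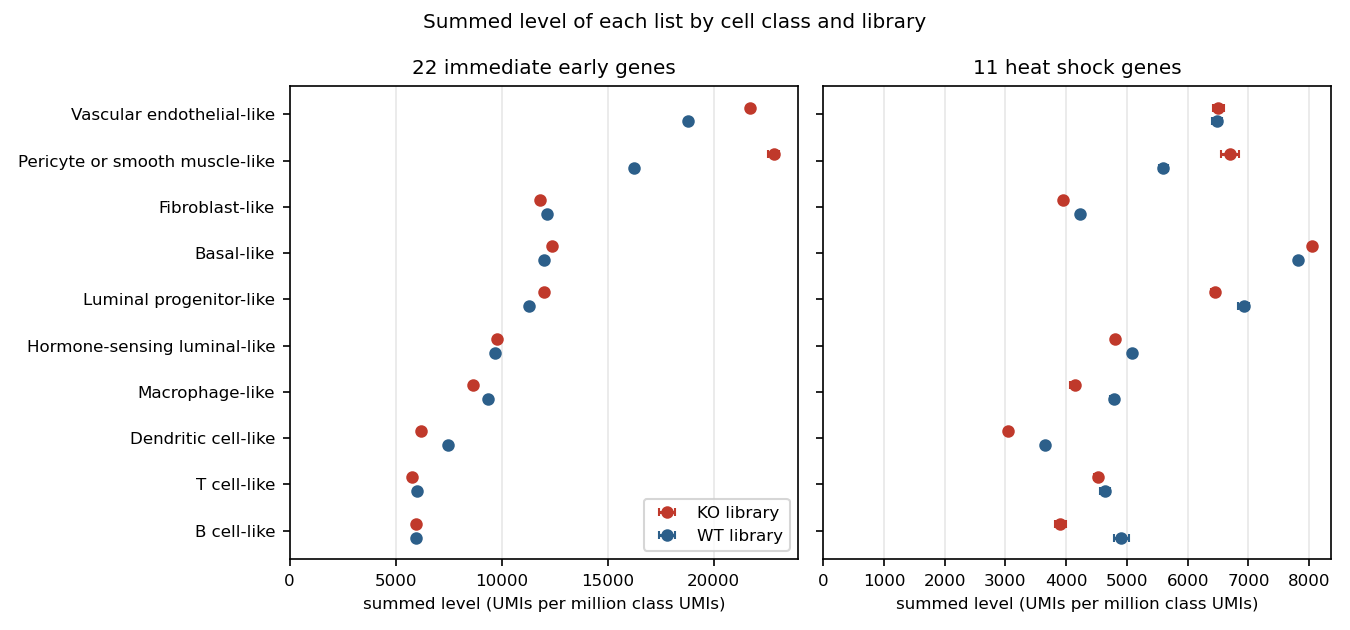
Summed CPM of the 22 immediate early genes (left) and the 11 heat shock genes (right) in 10 cell classes; points are the KO (red) and WT (blue) libraries and bars are 95% counting intervals, often smaller than the point. Immediate early levels ran from 5773 to 22829.8 CPM in KO, with both vessel classes far to the right, while heat shock levels peaked in basal-like cells.

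Heat shock genes followed another order. Basal-like cells, the contractile outer layer of the ducts, were highest in both libraries at 8053 (7996 to 8109) CPM in KO and 7811 (7766 to 7856) in WT. Luminal progenitor-like cells had 6447 and 6921 CPM, vascular endothelial-like cells 6503 and 6487, and pericyte or smooth muscle-like cells 6700.4 and 5601. Dendritic cell-like cells were lowest of the classes compared, at 3039 (2992 to 3086) CPM in KO and 3659 (3604 to 3715) in WT. Neutrophil-like cells, too few to be compared, had 1409 CPM in KO and 1747 in WT. Fibroblast-like cells stood in the middle for immediate early genes but next to lowest in WT for heat shock genes, at 3947 CPM in KO and 4221 in WT. The highest class exceeded the lowest 3.95-fold in KO and 3.14-fold in WT for immediate early genes, and 2.65-fold and 2.13-fold for heat shock genes.

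The balance of the 2 lists differed between classes. Immediate early counts were 3.41 times heat shock counts in KO pericyte or smooth muscle-like cells and 2.90 times in WT, with vascular endothelial-like cells at 3.34 and 2.89 and fibroblast-like cells at 2.99 and 2.87. The ratio was 1.28 and 1.29 in T cell-like, 1.52 and 1.22 in B cell-like, and 1.53 and 1.54 in basal-like cells. The T cell-like ratio pooled clusters of unlike balance, whose sums are given below. The order of the 10 classes was close between libraries, with a Spearman correlation of 0.94 for immediate early and 0.87 for heat shock sums, given as a description over 10 classes. Between the lists the same correlation was 0.78 in KO and 0.49 in WT. A few genes set each sum: Jund, Junb and Fos held 36.0% of KO and 33.6% of WT immediate early counts over all cells, and Hsp90ab1, Hspa8 and Hsp90aa1 held 67.4% of KO heat shock counts.

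Single genes differed in how far they varied between classes, from 2.52-fold in KO for Junb to 215-fold for Egr3 among immediate early genes. That Egr3 span rested on 22 KO UMIs in its lowest class. In WT the Egr3 span was 40.8-fold, and Egr2 had the widest at 65.6-fold. Among AP-1 genes, whose products pair into one transcription factor, Fos reached 2399 CPM in KO pericyte or smooth muscle-like and 1990 in WT basal-like cells and stood at 197 and 185 CPM in B cell-like cells. Fosl1, the AP-1 subunit Fra-1, was highest in luminal progenitor-like cells at 185 CPM in KO and 240.2 in WT, and was at 1.85 and 7.88 CPM in T cell-like cells. Fosl2 was highest in pericyte or smooth muscle-like cells at 613 and 660 CPM and lowest in hormone-sensing luminal-like cells at 29.3 and 34.2. Junb was the most even of the 22 in both libraries, at 2.52-fold in KO and 2.03-fold in WT between its highest and lowest class, a narrower span than that of the summed list.

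Of the zinc finger genes, Egr2 was highest in basal-like cells, at 133 CPM in KO and 169 in WT, and was at 1.01 and 2.57 CPM in hormone-sensing luminal-like cells. Egr3 was highest in fibroblast-like cells, at 191 and 221 CPM, and was at 0.890 and 5.40 in the same hormone-sensing class. The hormone-sensing class was thus almost without Egr2 and Egr3 while it carried Fos at 1427 and 1270.1 CPM and Jun at 1209 and 1061. Nr4a1, an orphan nuclear receptor, reached 1024 and 990.3 CPM in pericyte or smooth muscle-like cells and 19.0 and 31.7 in hormone-sensing luminal-like cells. Klf2, a factor known for naive T cells and for endothelium under flow, was highest in T cell-like cells at 624 and 597 CPM and was at 26.0 and 27.4 in luminal progenitor-like cells. Klf6 was highest in luminal progenitor-like cells of both libraries, at 933 CPM in KO and 1421 in WT.

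Of the genes known to dampen signalling, Dusp1, a phosphatase of MAP kinases, stood at 1378 and 1256 CPM in vascular endothelial-like cells and at 85.0 and 119 in hormone-sensing luminal-like cells. Zfp36, which destabilises cytokine messages, stood at 1056 and 937 CPM in the endothelial class. Socs3, an inhibitor of cytokine signalling, was highest in basal-like cells at 383 and 453 CPM.

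**Figure D2:**
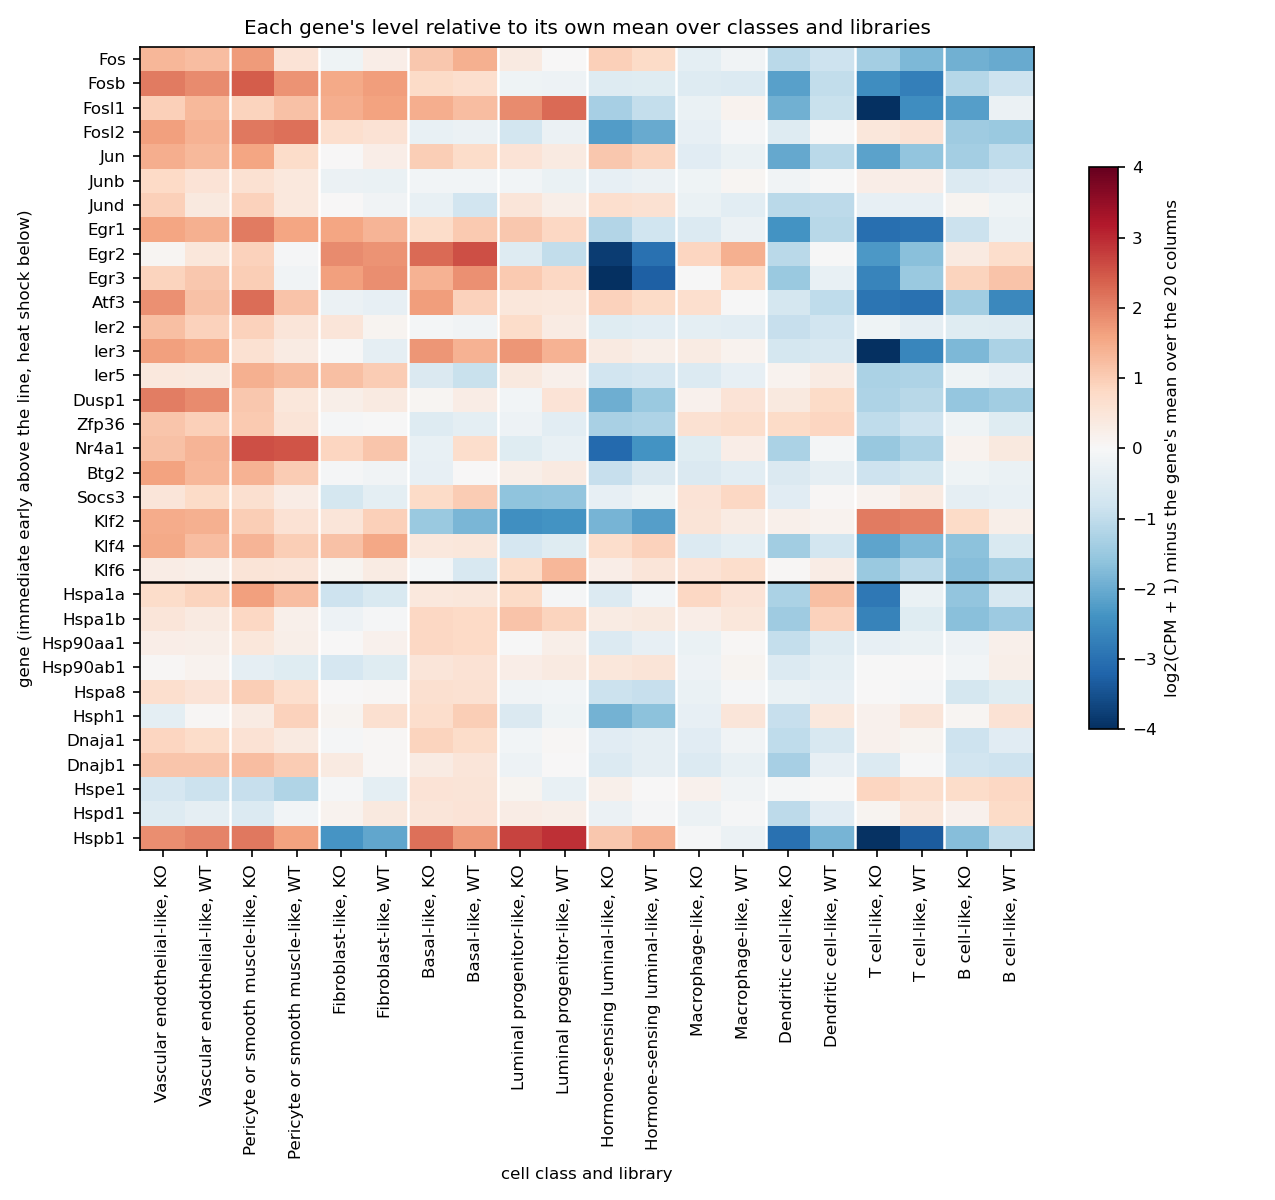
Heat map of log2(CPM + 1) for each of the 33 genes (rows) in 10 classes and 2 libraries (columns), minus the gene's own mean over the 20 columns; red is above and blue below that mean, so colours compare classes within a gene and not genes. The KO and WT columns of a class look alike, and Hspb1, Egr2 and Egr3 span the widest range of levels between classes in both libraries.

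Among chaperones, the small heat shock gene Hspb1 had the widest range, from 1612 CPM in KO and 1892 in WT luminal progenitor-like cells to 15.0 and 24.1 in T cell-like cells, a fold of 107 and 78.6. Hsp90aa1 and Hsp90ab1, the cytosolic Hsp90 pair, were highest in basal-like cells, at 1327 and 1295 CPM for the first and 2278 and 2458 for the second. Hspa8, the constitutive Hsp70, was highest in pericyte or smooth muscle-like cells at 1937 and 1558 CPM. Hspe1 was lowest there, at 153 and 125 CPM, and high in T cell-like (527 and 472) and B cell-like cells (487 and 511). Inducible Hspa1a and Hspa1b, the genes whose near-identical promoters are printed above, stayed at or below 143 CPM in each class of both libraries. Their transcripts share 64.1% and 67.8% of 30-base words but none in the last 400 bases, where 3′ counting takes its reads.

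Summed over all cells, the KO and WT libraries were close. Immediate early genes totalled 10769 CPM in KO and 10614 in WT, and heat shock genes 4978 and 5375. The median log2 ratio of KO to WT, computed on CPM + 1, was -0.07 over immediate early and -0.14 over heat shock genes, beside -0.04 over all 18714 genes with at least 20 UMIs. None of the 22 immediate early genes differed by 1.5-fold or more, a size that 1.80% of all genes reached upward and 4.08% downward. Of the 11 heat shock genes 1 did, Hsph1, at 22.8 CPM in KO and 40.1 in WT (log2 -0.79). The mixture of cells differed between the libraries, and with the 10 classes weighted equally the immediate early median was 0.07.

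The highest immediate early ratios over all cells were those of Atf3 (391 against 308 CPM, log2 0.34), Jund (1617 against 1345, 0.27) and Ier3 (726 against 618, 0.23). The lowest were those of Nr4a1 (161 against 226 CPM, -0.49), Fosl1 (83.2 against 114, -0.44) and Egr3 (103 against 131, -0.35). Among heat shock genes Hspe1 (338 against 308 CPM) was the one above WT at 0.13, followed by Hspb1 at -0.00 and Dnajb1 at -0.03, while Hspa1a stood at -0.43 and Hspd1 at -0.36 next to Hsph1. Within either list, then, some genes stood higher and others lower in KO.

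A few genes kept one direction through most classes. Atf3, a stress-induced partner of Jun, was higher in KO in 10 of 10 classes as counted, and in 8 to 10 under other settings. Its level in KO and WT was 857 and 508 CPM in basal-like, 1260.1 and 591 in pericyte or smooth muscle-like, 957 and 610.2 in vascular endothelial-like, 428 and 263 in macrophage-like and 101 and 43.7 in B cell-like cells, the 5 classes past 1.5-fold. Upward, 3.89% to 8.91% of all genes passed that size in those classes. Atf3 differed little in luminal progenitor-like (363 and 358 CPM), T cell-like (34.2 and 32.8) and fibroblast-like cells (227 and 215).

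Hsph1 was lower in KO in 10 of 10 classes, and in 9 or 10 under other settings. Its KO and WT levels were 14.5 and 38.5 CPM in dendritic cell-like, 22.2 and 39.6 in macrophage-like and 35.4 and 54.0 in pericyte or smooth muscle-like cells, the 3 classes past 1.5-fold. Downward, 12.9% to 17.6% of all genes passed that size in those classes. In fibroblast-like cells Hsph1 stood at 30.9 and 45.0 CPM (-0.53) and in basal-like cells at 46.5 and 56.5 (-0.28). Nr4a1 was lower in KO in 9 of 10 classes, most in dendritic cell-like (70.9 against 161 CPM, -1.17) and basal-like cells (138 against 281, -1.02), and was level in pericyte or smooth muscle-like cells (1024 against 990.3, 0.05).

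Hspe1 and Hspd1 parted although they share a promoter region. Hspe1 was higher in KO in 8 of 10 classes, as in fibroblast-like (282 against 219 CPM, 0.36) and luminal progenitor-like cells (313 against 236, 0.41). Hspd1 was lower in KO in 9 of 10, as in fibroblast-like (216 against 258 CPM, -0.25) and T cell-like cells (213 against 269, -0.33). Jund, Ier2 and Klf2 were higher in KO in 8 of 10 classes, and Fosl1, Socs3 and Hsp90ab1 lower in 9 of 10. Some of these directions depended on the setting. With each library clustered alone, Klf2 turned to -0.86 in dendritic cell-like and -0.16 in T cell-like cells. With TMM scaling, Hsp90ab1 turned to 0.04 in hormone-sensing luminal-like, 0.03 in dendritic cell-like and 0.14 in T cell-like cells. Consistency over classes is not replication, since all classes of a genotype came from 1 library. How many of all genes kept one direction over the classes was not counted. The median log2 ratio over all genes was negative in each class, from -0.17 in dendritic cell-like to -0.02 in luminal progenitor-like cells.

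**Figure D3:**
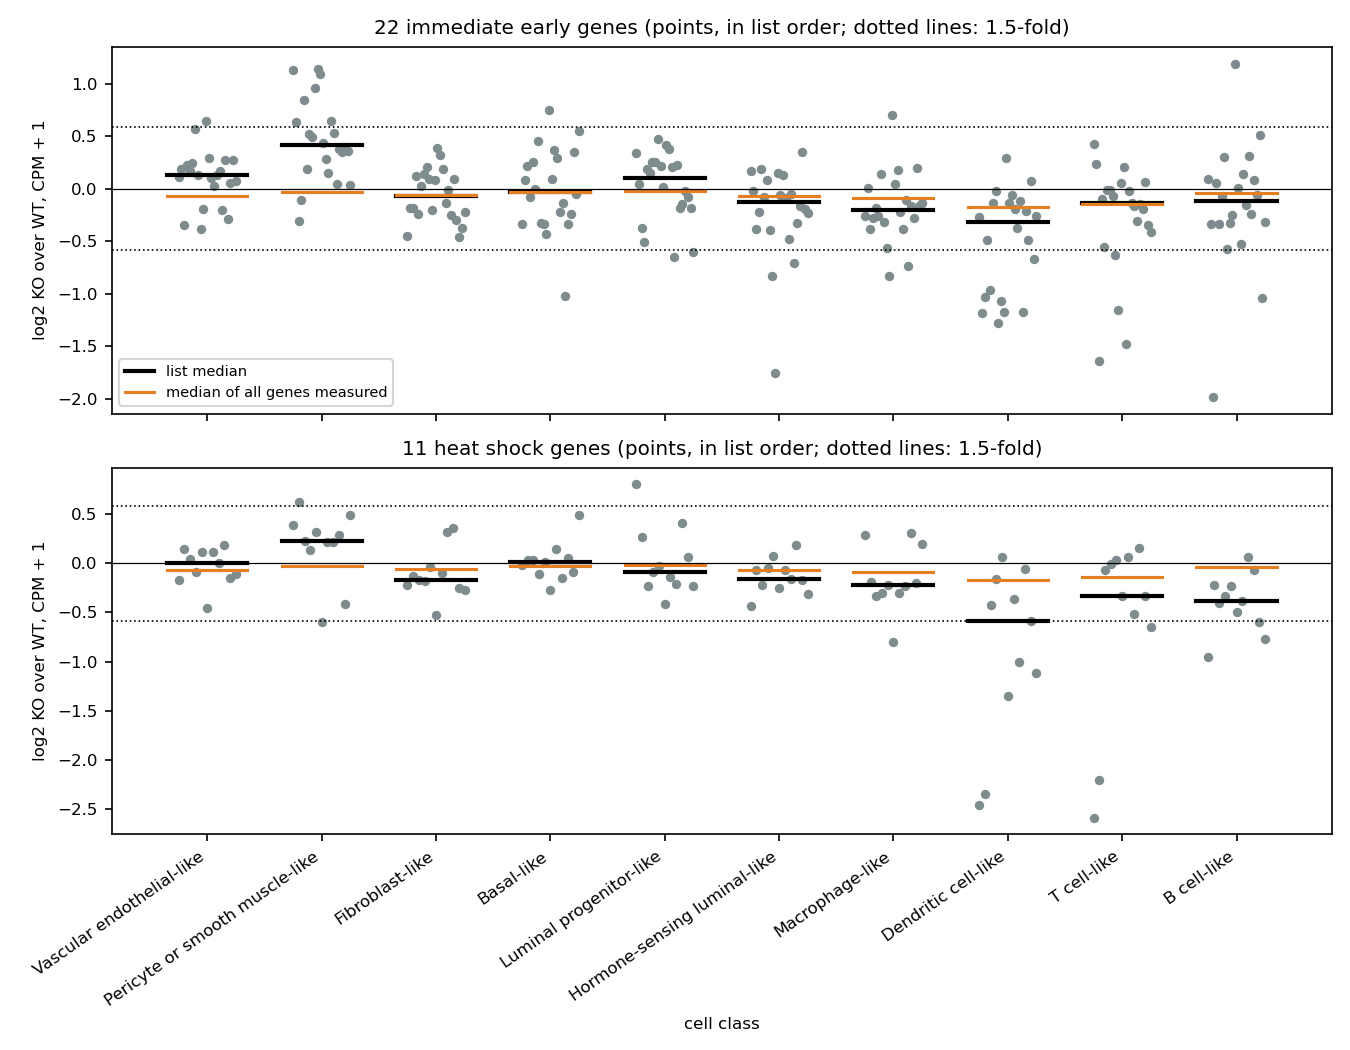
log2 ratio of KO to WT (CPM + 1) of each immediate early gene (top) and heat shock gene (bottom) in 10 classes; black bars are list medians, orange bars the median of all genes measured in that class, and dotted lines mark 1.5-fold. The immediate early points sit mostly above 0 in pericyte or smooth muscle-like cells (median 0.42) and below it in dendritic cell-like cells (median -0.32).

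Pericyte or smooth muscle-like cells, 218 in KO and 524 in WT, had the largest difference in the immediate early sum. There 20 of 22 immediate early genes were higher in KO, with a median log2 ratio of 0.42 against -0.03 for all genes, and 7 of 22 passed 1.5-fold upward, a size reached by 8.91% of all genes in that class. Fos stood at 2399 CPM in KO and 1097 in WT (1.13). Atf3 followed at 1260.1 and 591 CPM (1.09), Egr3 at 121 and 54.0 (1.15), Egr2 at 52.3 and 26.5 (0.96), Jun at 1724 and 958 (0.85, interval 0.77 to 0.93), Dusp1 at 713 and 455 (0.65) and Fosb at 2046 and 1314 (0.64). Fosl1 (90.2 against 112 CPM, -0.31) and Fosl2 (613 against 660, -0.11) were the exceptions. Core AP-1 genes thus stood higher in the KO library while the Fra subunits did not. For Egr3, 5 cells held 39.2% of KO and 23.5% of WT counts. With at most 5% mitochondrial UMIs, Egr3 stood at 0.09 and Egr1 at 0.11, but Fos at 1.29, Atf3 at 1.45 and Jun at 1.11. With doublets kept, Fosb stood at 0.45 and Egr2 at 0.57, short of 1.5-fold. As a mean over cells, Fosb also fell short, at 0.57. The median cell of the class had 5.00% mitochondrial UMIs in KO and 5.10% in WT.

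Of the heat shock genes in this class 9 of 11 were higher in KO, with a median of 0.23. Hspa1b passed 1.5-fold upward (105 against 67.7 CPM, 0.62), and Hsph1 passed it downward (35.4 against 54.0, -0.59), as 12.9% of all genes did. After thinning every cell to 2000 UMIs, the median cell held 39 immediate early UMIs in KO and 28 in WT, with 10th percentiles of 18 and 14 and 90th percentiles of 79 and 54, so the whole range lay higher in KO. The class's own 7 markers summed to 5356 CPM in KO and 6417 in WT, with 4 of 7 higher in KO and none at 0. Basal markers, some of which smooth muscle also expresses, summed to 8868 and 11336 CPM (0 of 7 higher in KO, 1 at 0 in KO), and fibroblast markers to 2167 and 2347 (2 of 7 higher, none at 0). Skeletal muscle markers summed to 7.59 and 115 CPM (0 of 7 higher, 2 at 0 in KO), and vascular endothelial markers to 68.3 and 49.7 (7 of 7 higher). The part of these lists and of depth, with a median of 5106.5 UMIs per KO and 6902 per WT cell in the main cluster, was not tested. In cluster 8 alone, which held 200 and 513 of the cells, the immediate early sum was 22573 against 16291 CPM.

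Dendritic cell-like cells, 461 in KO and 367 in WT, showed the reverse. Immediate early genes were lower in KO in 20 of 22 cases with a median of -0.32, and heat shock genes in 10 of 11 with a median of -0.59, beside -0.17 for all genes. In all, 8 immediate early genes passed 1.5-fold downward and 6 heat shock genes did, a size reached by 17.6% of all genes here, while none passed it upward, as 4.31% of all genes did. Egr1 stood at 89.8 CPM in KO and 220 in WT (-1.28), Fosb at 82.7 and 189 (-1.18), Egr3 at 20.8 and 48.3 (-1.18), Nr4a1 at 70.9 and 161 (-1.17) and Jun at 138 and 271 (-0.97). Egr2 and Fosl1 also passed, as did Klf4 (98.4 against 157 CPM, -0.67), whose direction turned at resolution 0.5 (0.24) and in cluster 18 alone (0.26). With cells classed one by one, Egr1 stood at -0.32, Fosb at -0.20 and Egr3 at -0.58, short of 1.5-fold, and Nr4a1 at -0.73. Jun fell short as well, at -0.38 with doublets kept and -0.56 without the 5 highest cells of each library. Junb, at 1286 and 1414 CPM, Jund, at 645 and 653, and Zfp36, at 815 and 881, hardly differed.

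The largest differences among chaperones were those of the Hsp70 pair, Hspa1a at 18.3 (14.8 to 22.3) CPM in KO and 105 (96.3 to 115) in WT, and Hspa1b at 21.2 and 112. These rested on few cells: 18 KO and 38 WT dendritic cell-like cells held a Hspa1a UMI, and 5 cells held 84.4% and 64.7% of the counts. Without those 5 cells of each library the values were 2.89 and 37.6 CPM. Hsph1, Dnajb1 and Hspd1 passed as well, Dnajb1 at 36.2 and 73.6 CPM. Hspd1 passed narrowly, at 95.1 and 143 CPM (-0.59). It fell short without the 5 highest cells of each library (-0.50) and with TMM scaling (-0.40). Hspb1 also passed, at 30.3 and 67.1 CPM (-1.12), but stood at 0.13 with doublets kept. For Fosb, 5 WT cells held 45.0% of the counts, and without the 5 highest cells of each library it stood at 65.2 and 107 CPM.

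Markers of other cells differed between the libraries in this class, in both directions. Fibroblast markers summed to 988 CPM in KO and 4663 in WT dendritic cell-like cells, with 0 of 7 higher in KO and none at 0, and basal markers to 216 and 518 (1 of 7 higher, none at 0). Dendritic markers themselves summed to 1241 and 1668 CPM, 0 of 7 higher in KO, and B cell markers to 818 and 1267 (3 of 7 higher). Among lists higher in KO were neutrophil markers, at 527 and 298 CPM (5 of 6 higher), and macrophage markers, at 369 and 311 (4 of 7). T cell markers stood at 327 and 303 CPM (4 of 7). The part of these in the result was not tested. Of its clusters, number 15 had immediate early sums of 6162 and 7643 CPM and heat shock sums of 2925 and 3222, and number 18 had 6295 and 7042 for the first and 3268 and 4768 for the second. The heat shock difference was thus the larger one in cluster 18, at -0.54 against -0.14 on the log2 scale of the sums.

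In basal-like cells, 605 in KO and 948 in WT, both lists were level, at a median of -0.03 and 0.01. One immediate early gene passed 1.5-fold upward, Atf3, and 1 downward, Nr4a1, beside 3.89% and 7.04% of all genes. Klf6 (533 against 363 CPM, 0.55) and Jund (1103 against 806, 0.45) were next highest, and Egr3 (158 against 214, -0.43) and Fos (1575 against 1990, -0.34) next lowest. Of heat shock genes none passed. The highest were Hspb1 (1154 against 820.1 CPM, 0.49), Dnaja1 (739 against 668, 0.15) and Hspe1 (427 against 412, 0.05), and the lowest Hsph1 (-0.28), Dnajb1 (118 against 131, -0.15) and Hsp90ab1 (2278 against 2458, -0.11). Within the class the dividing cluster 25 had immediate early sums of 5158 CPM in KO and 4393 in WT, far below the 13651 and 14238 of cluster 5, while heat shock sums were nearer, at 6310.3 and 5839 against 8366 and 8394. The medians moved to -0.13 and -0.08 without cluster 25. Fibroblast markers summed to 437 and 693 CPM (0 of 7 higher in KO, none at 0), and their part was not tested.

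Luminal progenitor-like cells, 440 in KO and 262 in WT, had medians of 0.10 and -0.09. Klf6 (933 against 1421 CPM, -0.61) and Dusp1 (311 against 488, -0.65) passed 1.5-fold downward, beside 7.78% of all genes, and no immediate early gene passed upward. Fosl2 was next (85.2 against 121, -0.51). Egr2 (18.8 against 13.3 CPM, 0.47), Ier2 (567 against 424, 0.42) and Ier3 (1514 against 1167, 0.37) were highest. Hspa1a passed upward, at 77.2 (70.4 to 84.6) against 43.9 (37.4 to 51.2) CPM, beside 6.82% of all genes. A single cell held 20.9% of its KO and 52.5% of its WT counts, and without the 5 highest cells of each library it stood at 30.5 and 16.7. Hspe1 (0.41) and Hspa1b (130 against 108, 0.27) followed, with Hsph1 (18.5 against 24.9, -0.41), Hsp90aa1 (744 against 875, -0.23) and Hspb1 (1612 against 1892, -0.23) lowest. Fibroblast markers summed to 240 and 627 CPM (0 of 7 higher in KO, none at 0), and their part was not tested.

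Hormone-sensing luminal-like cells, 1238 in KO and 974 in WT, had medians of -0.13 and -0.16 beside -0.07 for all genes. Egr3 (0.890 against 5.40 CPM, -1.76), Egr2 (1.01 against 2.57, -0.83) and Nr4a1 (19.0 against 31.7, -0.71) passed 1.5-fold downward, beside 6.40% of all genes, and none passed upward (1.54% of all genes). All 3 were at their lowest of any class here, and Egr3 rested on 22 and 124 UMIs. Fibroblast markers, from the class where Egr3 was highest, summed to 78.3 CPM in KO and 333 in WT (0 of 7 higher in KO, none at 0), and their part was not tested. Klf2 (39.8 against 31.1 CPM, 0.35), Jun (1209 against 1061, 0.19) and Fos (1427 against 1270.1, 0.17) were highest. No heat shock gene passed: Hspe1 (332 against 292, 0.19), Hspa8 (541 against 514, 0.07) and Hsp90ab1 (2260.5 against 2337, -0.05) were highest and Hspa1a (30.7 against 41.9, -0.44), Hspb1 (523 against 650.4, -0.31) and Hsph1 (6.92 against 8.45, -0.26) lowest.

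Fibroblast-like cells, 4601 in KO and 3848 in WT, gave the most precise values, and none of the 33 genes passed 1.5-fold, beside 1.79% of all genes upward and 2.84% downward. Ier2 (481 against 368 CPM, 0.39), Ier3 (439 against 350, 0.33) and Egr1 (1418 against 1230, 0.21) were highest. Klf2 (208 against 287, -0.46), Fos (654 against 896, -0.45) and Klf4 (587 against 759, -0.37) were lowest. The immediate early median of -0.07 was that of all genes (-0.06), and turned to 0.02 with TMM scaling. Heat shock genes stood at -0.17, with 9 of 11 lower in KO: Hsph1 (-0.53), Hspb1 (47.6 against 57.7, -0.27) and Hspd1 (-0.25) were lowest, and Hspe1 (0.36), Dnajb1 (121 against 96.9, 0.31) and Hspa8 (993 against 1019, -0.04) highest.

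In vascular endothelial-like cells 17 of 22 immediate early genes were higher in KO (median 0.13), with Atf3 past 1.5-fold beside 4.45% of all genes and Jund next (2644 against 1784 CPM, 0.57). None of the 33 passed downward there (12.2% of all genes), heat shock genes stood at 0.00, and fibroblast markers summed to 1155 CPM in KO and 2882 in WT (0 of 7 higher, none at 0), whose part was not tested. In macrophage-like cells Atf3 passed upward (8.13% of all genes did) and Egr3 (59.2 against 106 CPM) and Nr4a1 (123 against 205) downward, with Hsph1 (14.5% of all genes). Macrophage markers summed to 5979 CPM in KO and 4474 in WT (5 of 7 higher in KO), and basal markers to 1634 and 3110 (0 of 7). Luminal progenitor markers summed to 2132 and 2679 CPM (3 of 7 higher) and hormone-sensing luminal markers to 765 and 555 (4 of 7). None of these was at 0, and their part was not tested.

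In B cell-like cells heat shock genes stood lower in KO in 10 of 11 cases, with a sum of 3905 against 4907 CPM and a median of -0.39, beside -0.04 for all genes. Hspa1a, Hspb1 and Hspd1 passed 1.5-fold downward, as did Fosl1 and Klf4 (15.5% of all genes). Without the 5 highest cells of each library Hspa1a stood at 1.43 and 2.34 CPM (-0.46), and as a mean over cells it turned to 1.35. Hspd1 stood at -0.36 without its 5 highest cells and at -0.05 after thinning. Atf3 passed upward (8.32% of all genes), but ran from -1.70 to 1.23 over the alternatives. B cell markers summed to 4927 CPM in KO and 10818 in WT (5 of 7 higher in KO), plasma cell markers to 1899 and 10063 (0 of 6 higher) and basal markers to 733 and 1552 (0 of 7 higher), with none of these at 0, and their part in the result was not tested.

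In T cell-like cells the medians were -0.14 for immediate early and -0.33 for heat shock genes, beside -0.14 for all genes. There 4 immediate early and 3 heat shock genes passed downward, beside 16.3% of all genes, and none upward (4.27%). Among them were Ier3, at 25.3 CPM in KO and 72.6 in WT, and Hspa1a, at 5.36 and 37.2 CPM, of which 5 cells held 96.2% and 75.3%. Without the 5 highest cells of each library Ier3 stood at 14.5 and 22.7 CPM (-0.61), and with doublets kept at -0.35, short of 1.5-fold. B cell markers in T cell-like cells summed to 245 CPM in KO and 1546 in WT (1 of 7 higher, none at 0) and plasma cell markers to 136 and 679 (1 of 6 higher, none at 0). Fibroblast markers summed to 535 and 1216 CPM (0 of 7 higher, none at 0) and basal markers to 33.2 and 295 (0 of 7 higher, 1 at 0 in each library). The part of these lists in the result was not tested. The class joined clusters 11, 23 and 24, with immediate early sums of 6348, 7261 and 4103 CPM in KO and 6999, 7117 and 4363 in WT. Their heat shock sums were 3389, 4133 and 6367 CPM in KO and 4173, 3443 and 5664 in WT. The heat shock sum was thus lower in KO in cluster 11 only.

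Over single cells, immediate early genes were detected nearly everywhere. After thinning to 2000 UMIs, which left out 369 KO and 788 WT cells below that depth, the median cell held 18 immediate early UMIs in either library, with a 10th percentile of 8 and a 90th of 41 and 42. Only 0.169% of KO and 0.401% of WT cells had none. For heat shock genes the median was 8 in KO and 9 in WT. The 10% of cells with most UMIs of a list held 30.04% and 32.4% of all immediate early UMIs and 23.3% and 22.4% of heat shock UMIs over all cells. In fibroblast-like cells those shares were 30.4% in KO and 36.5% in WT for immediate early and 20.2% and 21.0% for heat shock genes. The order was the other way in T cell-like cells, at 20.7% and 22.004% against 24.8% and 33.05%, and in dendritic cell-like cells, at 22.2% and 27.3% against 25.8% and 37.3%.

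**Figure D4:**
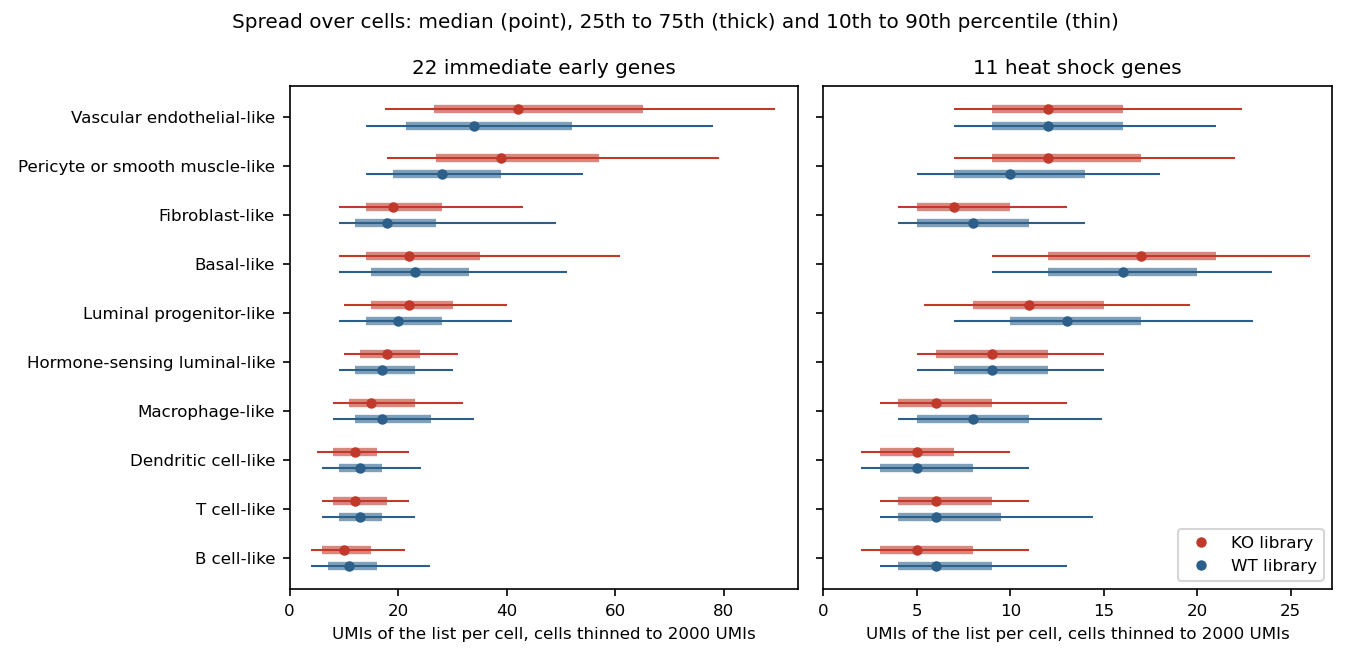
UMIs of each list per cell after every cell was thinned to 2000 UMIs, by class and library (KO red, WT blue); points are medians, thick bars the 25th to 75th and thin bars the 10th to 90th percentile over cells. In pericyte or smooth muscle-like cells the whole immediate early range lies higher in KO (median 39) than in WT (28), while in fibroblast-like cells the 2 medians are 19 and 18.

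Cells high in one list were not as a rule high in the other. The Spearman correlation between the 2 lists over thinned cells, a description of cells that share a library, ran from -0.08 in KO T cell-like to 0.37 in KO basal-like cells. It was 0.09 and 0.10 in fibroblast-like and 0.26 and 0.33 in vascular endothelial-like cells. With a median of 8 or 9 heat shock UMIs per thinned cell, counting error weakens such a correlation, by an amount that was not tested. In basal-like cells immediate early counts went with the mitochondrial share of a cell (0.36 in KO and 0.27 in WT) and against its unthinned depth (-0.33 and -0.27). In fibroblast-like cells they did not go with the mitochondrial share (-0.01 and 0.01). The basal-like class includes the dividing cluster 25, low in immediate early genes. Its median depth was 29436 UMIs in KO and 35906.5 in WT, against 11743 and 10139.5 in cluster 5. Its median mitochondrial share was 2.82% and 3.36%, against 3.69% and 4.49%. The part of cluster 25 in the basal-like correlations was not tested.

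Pairs of genes were then correlated over cells thinned to 5000 UMIs in the basal-like, luminal progenitor-like, hormone-sensing luminal-like and fibroblast-like classes of both libraries, and the 8 values were averaged, for the 17 immediate early and 9 heat shock genes with enough detections. Immediate early pairs had a median r of 0.16 over 136 pairs, heat shock pairs 0.09 over 36, and pairs across the lists 0.05 over 153. Fos and Egr1 were highest at 0.50 (0.31 to 0.66 over the 8), followed by Fosb with Atf3 at 0.48, Fos with Zfp36 at 0.45 and Fos with Jun at 0.43. The highest heat shock pair, Hsp90aa1 with the Hsp70 cochaperone Dnaja1, reached 0.16, and the highest pair across lists, Atf3 with Hspa8, 0.21. Hspe1 and Hspd1 correlated at 0.10 with each other, and Fosb at -0.08 and -0.09 with them.

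**Figure D5:**
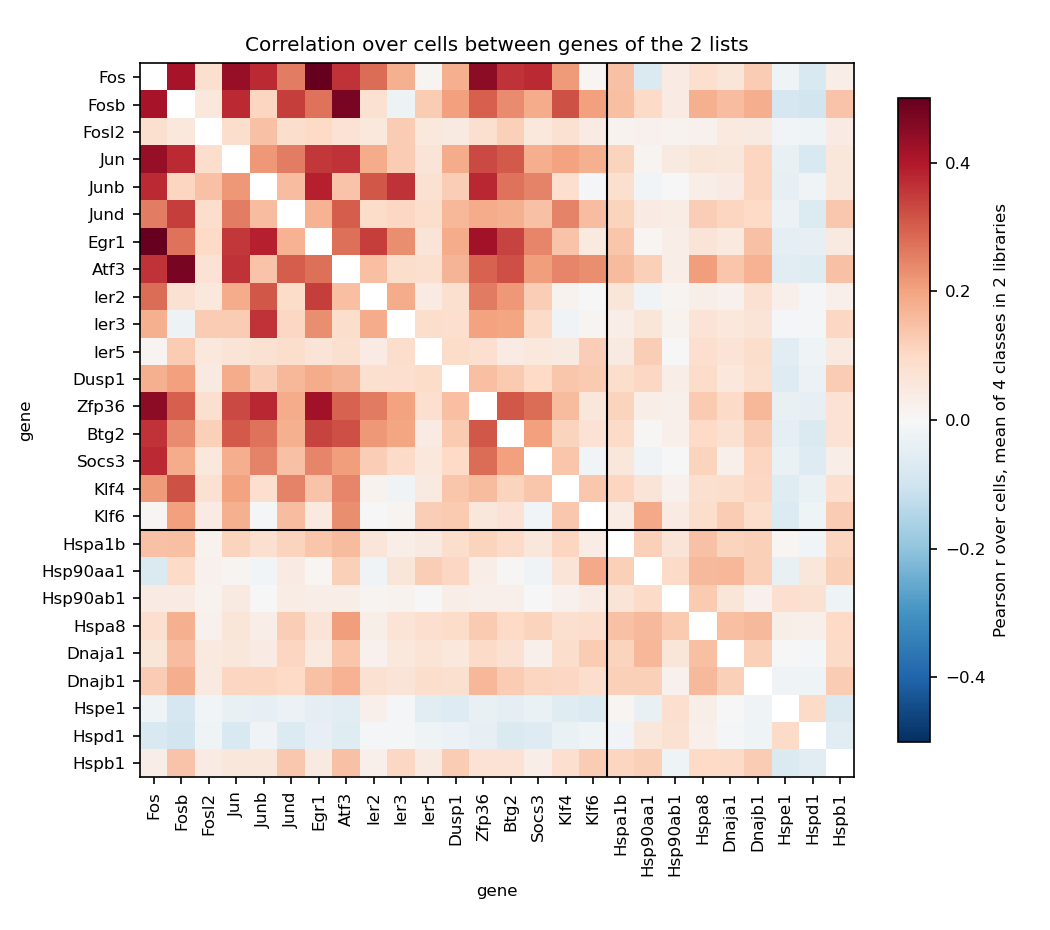
Pearson r over thinned cells for pairs among 17 immediate early and 9 heat shock genes, averaged over 4 classes in 2 libraries; red is positive, blue negative, and black lines part the lists. The block from Fos to Egr1 and Atf3 reaches 0.50, the heat shock block reaches 0.16, and the rows of Hspe1 and Hspd1 are pale or blue.

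Outside the 2 lists, the genes most like the immediate early sum over the same cells, by mean r of 8 values among 3112 candidates, were Ccnl1 (0.29), Zfp36l1 (0.29), Gadd45b (0.28), Bhlhe40 (0.28), Ppp1r15a (0.27), Cebpd (0.26), Pnrc1 (0.24), Irf1 (0.23), Sik1 (0.22) and Ifrd1 (0.22). Among those most like the heat shock sum were Ifrd1 (0.24), Maff (0.21), Ubb (0.20), Hmox1 (0.20), Hspa5 (0.18), Bag3 (0.18), H3f3b (0.18), Csrnp1 (0.17) and Mt2 (0.17). Ifrd1 was in both groups.

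Related genes were counted over all cells, where 1.80% of all genes passed 1.5-fold upward and 4.08% downward. Of 56 other genes induced early, 18 were higher and 38 lower in KO (median -0.14), with 3 past 1.5-fold, all lower: Egr4 (1.73 against 3.57 CPM, -0.75), Btg1 (673 against 1108, -0.72) and Arc (36.6 against 57.3, -0.64). Gadd45a (304 against 253 CPM, 0.26), Ier5l (30.1 against 25.2, 0.25) and Dusp2 (40.4 against 35.4, 0.19) were highest. Of 45 other chaperones and cochaperones 13 were higher and 32 lower (median -0.17), 2 of them past 1.5-fold, so that for both lists the count was near the share over all genes. The small heat shock genes Hspb6 (3.14 against 6.75 CPM, -0.91) and Cryab (122 against 193, -0.66) passed and Hspb8 (31.0 against 45.0, -0.52) came next, whereas Ahsa1, an activator of Hsp90, stood at 42.4 against 31.5 (0.42), the ubiquitin gene Ubb at 2511 against 1884 (0.41) and Ahsa2 at 26.5 against 22.5 (0.23). Of 14 chaperones of the endoplasmic reticulum 4 were higher and 10 lower (median -0.09). Hyou1 passed (27.7 against 43.6 CPM, -0.64), with Pdia4 (87.2 against 115, -0.40) and Hspa5 (543 against 712, -0.39) next, and Sdf2l1 (0.26), Dnajb11 (0.12) and Manf (0.05) highest.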

How the data were processed

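Single-cell 3′ RNA-seq was available for 1 KO and 1 WT library. Values are UMI counts per gene and cell as deposited by the authors; Cell Ranger 5.0.1 and Seurat 3.2.0 and the build mm10 are named in the submitters' processing notes, and filtering before deposit is not given in the sources used here. Barcodes were kept from 500 detected genes and 1000 UMIs upward, with a mitochondrial share no higher than 10% (10907 KO, 10984 WT), and 485 and 461 doublets called by scrublet in scanpy 1.11.5 were removed. Log-normalised counts of 2000 variable genes, without any listed gene, gave 30 components, 20 neighbours and Leiden clusters at resolution 1. Classes were named from markers; the limits for naming were revised after the clusters were seen, and different limits could move cells between classes.

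UMIs were summed per class and library and scaled to CPM, and log2 ratios used CPM + 1, which understates changes of low genes. Intervals are exact Poisson for a level and exact conditional for a ratio. Genes with at least 20 UMIs over both libraries were measured, and 1.5-fold was the size counted as passed. Named genes are the 3 highest and 3 lowest of each list with at least 50 UMIs over all cells and in the 4 main classes, and those past 1.5-fold. The 33 genes, the related lists and the markers were chosen with earlier results of these data known. The summing and ratios were tested on simulated data. Alternatives numbered 15 planned and 6 added after seeing the data; edgeR 4.0.16 served only for TMM factors, in R 4.3.3. Correlations over cells used counts thinned to 5000 UMIs, and percentiles counts thinned to 2000. One gene that the rule for likeness names is not reported here.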

Additional observations from a re-analysis of the deposited data

Results flagged for a closer look

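Both lists stood higher in KO in one cell class and lower in another, a difference between the classes that was not tested, since each genotype has 1 library. In pericyte or smooth muscle-like cells the median log2 ratio of KO to WT was 0.42 over immediate early and 0.23 over heat shock genes. In dendritic cell-like cells it was -0.32 and -0.59.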

How the results depend on the processing

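No paired analysis was possible because each genotype has 1 library, and for that reason no replicate could be left out. Depth limits the low genes: Egr3 in hormone-sensing luminal-like cells rested on 22 KO UMIs. Of the alternative values of list medians over all cells, in the 4 main classes and in dendritic cell-like and pericyte or smooth muscle-like cells, 178 stayed close and 44 moved. The cause of each move below was not tested. For immediate early genes the median over all cells was -0.0074 with TMM, -0.044 as a mean over cells and 0.072 with classes weighted equally. In basal-like cells it was 0.15 at resolution 2, 0.047 at 5% mitochondrial UMIs, 0.062 after thinning, 0.039 as a mean over cells and -0.13 without cluster 25. In luminal progenitor-like cells it was 0.22 at 5% mitochondrial UMIs. In dendritic cell-like cells it was -0.47 with each library clustered alone, -0.17 with cells classed one by one and -0.13 with TMM, whose factors shifted all ratios by 0.19 there and by 0.15 in T cell-like cells. For heat shock genes the median over all cells was -0.077 with TMM, -0.21 after thinning and as a mean over cells, -0.11 without clusters of 1 library and -0.12 with classes weighted equally. In basal-like cells it was -0.11 at resolution 0.5, with listed genes kept and with each library alone, 0.10 at resolution 2, -0.080 with doublets kept, -0.082 without cluster 25, -0.073 with cells classed one by one and 0.075 as a mean over cells. In luminal progenitor-like cells it was -0.051 at resolution 0.5, -0.048 at resolution 2, -0.046 with doublets kept and with each library alone, -0.031 with listed genes kept and -0.024 with cells classed one by one. In fibroblast-like cells it was -0.24 with each library alone, -0.21 with cells classed one by one, -0.081 with TMM, -0.11 after thinning and -0.14 as a mean over cells. In dendritic cell-like cells it was -0.86 at resolution 0.5 and in cluster 18 alone, -0.29 with doublets kept, -0.79 with cells classed one by one, -0.40 with TMM, -0.81 after thinning, -0.85 as a mean over cells and -0.24 in cluster 15 alone. The immediate early sum was lower in KO in 5 of 10 classes, in 2 with TMM and in 3 without the 5 highest cells of each gene. Alternative values of single genes past 1.5-fold were counted over all cells, in the 4 main classes and in dendritic cell-like and pericyte or smooth muscle-like cells. Of these, 287 stayed close, 167 moved and 3 reversed. Klf4 in dendritic cell-like cells (-0.67) was 0.24 at resolution 0.5 and 0.26 in cluster 18 alone. Hspb1 there (-1.12) was 0.13 with doublets kept. Among T cell-like values short of 1.5-fold, Fos turned from 0.42 to -0.13, Fosb from 0.24 to -0.91 and Atf3 from 0.06 to -0.37 with each library clustered alone.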

Other observations

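Cells without a class also carried both lists. The largest cluster found almost wholly in WT, with 609 WT and 1 KO cells, had an immediate early sum of 12421 CPM in WT. A cluster of 297 WT cells had 5963 CPM for immediate early and 6159 for heat shock genes. A cluster of 29 WT cells had 15230.4 and 7392 CPM.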
